A study of Mus musculus with 3 samples.

Results

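The genes described here are 42 genes of glutathione conjugation and antioxidant defence, taken by symbol from a list of glutathione transferases, enzymes that make, recycle and break down glutathione, peroxiredoxins, thioredoxin enzymes, superoxide dismutases, catalase and genes of the NRF2 pathway. All 42 were present among the 23501 genes of the deposited tables, and each matched a single row. The list was named for non-peroxidase genes, but it holds 6 peroxiredoxins, which are thiol peroxidases, and catalase, which breaks down hydrogen peroxide; glutathione peroxidases are not in it. The data are RNA-seq libraries of epididymis from adult male ICR mice, an outbred strain. In the Sham group (3 mice) the testes were left in place after surgery. In the Cas+CO group (5 mice) both testes were removed, the epididymides were kept, and corn oil was given from 14 days after surgery. In the Cas+T group (5 mice) castrated mice instead received testosterone propionate, an injectable testosterone ester, in corn oil at 5 mg/kg under the skin on 10 days in succession. Each group is 1 library. The labels do not say whether a library pools its mice, and they record no injection for Sham, so castration and oil cannot be told apart in ratios over Sham.

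With 1 library per group there is no replicate error and no test: every ratio below compares 2 libraries. Levels are TPM, which divide by gene length and scale every library to a total of 1000000, so levels of different genes can be set side by side. Levels given without a library name are in the order Sham, Cas+CO, Cas+T. The sequencing depth is unknown. Log2 ratios are differences of log2(TPM + 1), which understate the change of low genes, and were formed for genes at 1 TPM or more in at least 1 of the 2 libraries. A gene is called higher or lower at 2-fold or more. A fixed total lifts all other genes where a few very abundant ones are low. Each ratio was therefore also read relative to the median log2 ratio of all genes compared. This median was 0.76 for Cas+CO against Sham, −0.46 for Cas+T against Cas+CO and 0.30 for Cas+T against Sham. Leaving the 50 most abundant genes of any library out of the total shifted the ratios by less, −0.33, 0.14 and −0.19. What else the medians reflect was not tested.

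The levels of cell type markers differed between the libraries. Summed over 6 markers each, principal cells (the main secretory cells of the duct, whose markers are androgen-dependent) stood at 90127 (Sham), 7225 (Cas+CO) and 67589 TPM (Cas+T), and general epithelium at 1546, 1953 and 1998 TPM. Markers of adipocytes (7 genes) summed to 34.6, 1538 and 92.8 TPM, of fibroblasts (6) to 102.9, 1279 and 108.4, of red blood cells (5) to 82.9, 2731 and 45.2, of macrophages (5) to 51.2, 558.2 and 102.1, and of endothelium (5) to 3.77, 32.8 and 3.86. All 7 adipocyte, 5 macrophage, 5 red blood cell, 5 endothelial and 5 of 6 fibroblast markers were higher in Cas+CO than in Sham. Basal cell markers (4) summed to 75.9, 149.8 and 105.3 TPM, clear cell markers (4) to 85.7, 329.7 and 150.9 and smooth muscle markers (6) to 911.2, 538.1 and 275.5, although 4 of these 6 were higher in Cas+CO than in Sham. Leydig cell markers, of which 2 of 4 were found, summed to 49.8, 2.15 and 42.3 TPM. In each library only 1 of these 2 reached 1 TPM, and 1 of the 2 was higher in Cas+CO than in Sham, so this sum does not describe a cell type. Of the sperm and germ cell markers (6; 59.8 TPM in Sham), all 6 were listed at 0 in Cas+CO and 5 in Cas+T, where the sum was 0.12 TPM. In whole tissue, fewer cells of a type and less RNA per cell cannot be told apart.

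Glutathione is a small thiol peptide that cells use to conjugate reactive compounds and to reduce peroxides. Glutathione transferases attach it to electrophiles, and gamma-glutamyl transferase at the cell surface breaks down the exported form. Peroxiredoxins, recharged by thioredoxin and thioredoxin reductase, remove hydrogen peroxide; superoxide dismutases produce it from superoxide. NRF2, encoded by Nfe2l2 and held back by KEAP1, binds antioxidant response elements near many of these genes. The epididymal duct stores and matures sperm, whose membranes are rich in easily oxidised lipids, and its epithelium is known for high glutathione transferase and gamma-glutamyl transferase expression.

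The members held 0.678%, 0.589% and 0.783% of all TPM (6779, 5894 and 7834 TPM). The 16 soluble transferases came to 3493, 1692 and 4171 TPM. In Sham the most abundant member was Gstm2, which ranked 107 among all genes, followed by Prdx1 at rank 133, Gstp1 at 176 and Gstm1 at 186. In Cas+CO the first members were Prdx1 at rank 113 and Mgst1 at 131, and Gstm2 stood at rank 324. In Cas+T Gstm2 was at rank 55 and Gstm1 at rank 108.

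**Figure D1:**
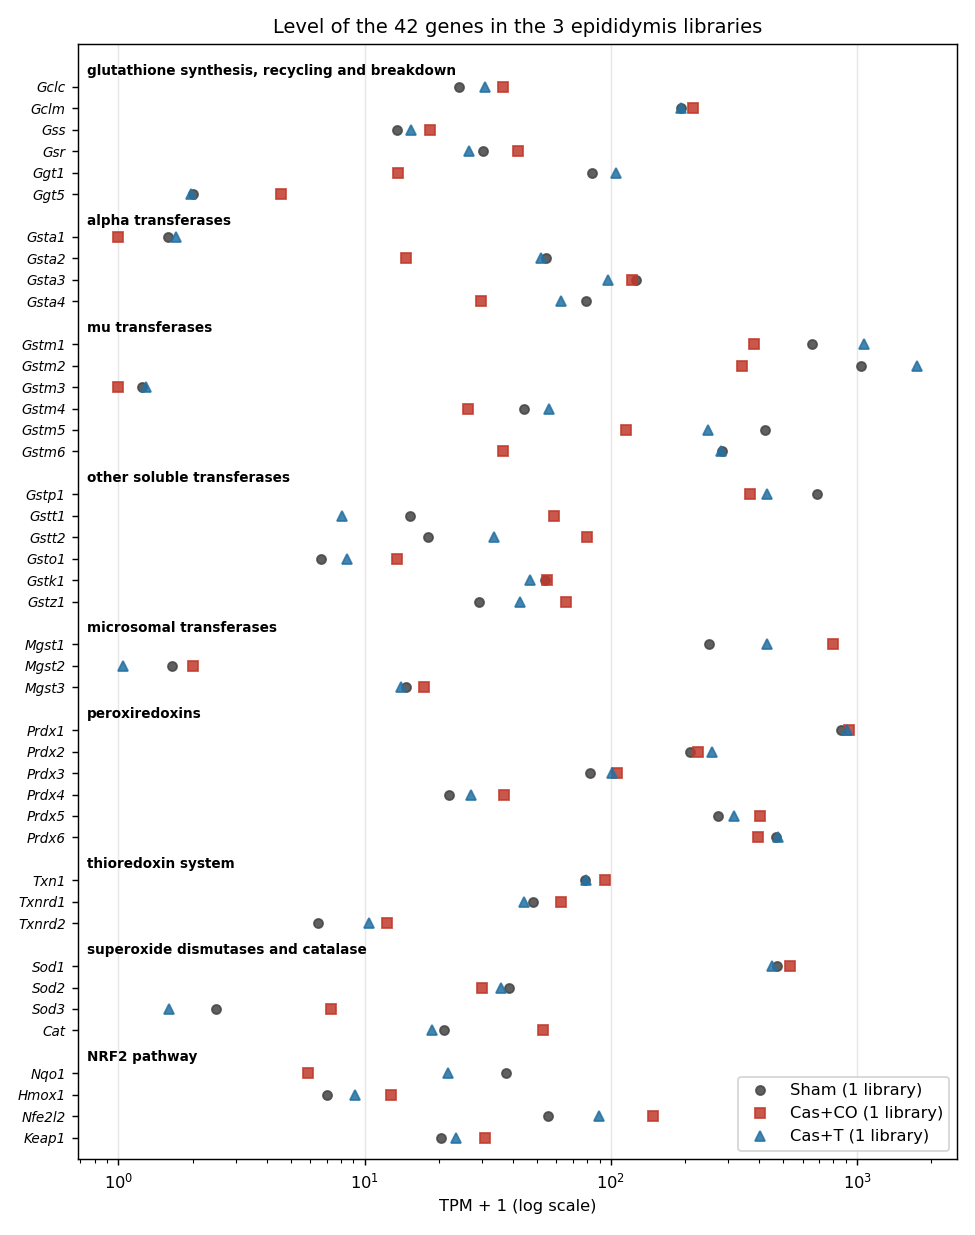
Level of each of the 42 members, as TPM + 1 on a log axis, in the Sham, Cas+CO and Cas+T libraries (1 point per library, no error), grouped by role. The Cas+CO squares lie to the left of the other symbols for the mu transferases, Gsta2, Gsta4, Ggt1 and Nqo1, to the right for Gstt1, Gstt2, Mgst1, Cat and Nfe2l2, and close to them for most peroxiredoxins.

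Of the 42 members, 40 reached 1 TPM in Sham or Cas+CO. Gsta1 (0.59, 0 and 0.71 TPM, where 0 is the listed value) and Gstm3 (0.25, 0 and 0.30 TPM) did not in any library and were not compared. In Cas+CO against Sham, 7 of the 40 (17.5%) were at least 2-fold lower, against 6.49% of all 16170 genes compared: Ggt1, Gsta2, Gsta4, Gstm2, Gstm5, Gstm6 and Nqo1. In the other direction 9 (22.5%) were at least 2-fold higher, against 37.5% of all genes: Cat, Ggt5, Gsto1, Gstt1, Gstt2, Gstz1, Mgst1, Nfe2l2 and Sod3. The other 24 lay within 2-fold, as did 56% of all genes. The median log2 ratio was 0.28 over the members and 0.76 over all genes. Relative to that median, 12 members (30%) were lower, against 13.4% of all genes, and 2 (5%) were higher, against 11.1%. The members are abundant genes, and more abundant genes had lower median ratios, from 0.93 at a mean of 1 to 10 TPM and 0.72 at 10 to 100 TPM. At a mean of 100 TPM or more, the median log2 ratio was 0.28 over 1229 genes, 13.9% of which were lower. It was 0.02 over the 14 members in that range, which include the lower members Gstm2, Gstm5 and Gstm6. At 10 to 100 TPM, 3.94% of 7505 genes were lower, and the median over the 20 members there was 0.37. The lower members Ggt1, Gsta2, Gsta4 and Nqo1 are in that range.

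In Cas+T against Cas+CO, 9 of 40 members (22.5%) were at least 2-fold higher, against 6.91% of all 16152 genes, and 5 (12.5%) were lower, against 23.4%; the other 26 lay within 2-fold, as did 69.6% of all genes. The 9 were the 7 lower members of the first comparison with Gstm1 and Gstm4, and the 5 were Cat, Ggt5, Gstt1, Gstt2 and Sod3. Relative to the median, 9 were higher, against 11.4% of all genes, and 3 (7.5%), Cat, Gstt1 and Sod3, were lower, against 11.8%. In Cas+T against Sham, none of the 39 members compared was 2-fold apart, whereas 5.2% of all 14620 genes were higher and 2.76% lower, and 92% lay within 2-fold. Relative to the median of that comparison 3 members (7.69%), Gstm5, Gstt1 and Nqo1, were lower, against 4.41% of all genes, and none was higher, against 2.04%. Since Cas+CO and Sham each stand in 2 of these comparisons, the counts are not independent of each other.

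**Figure D2:**
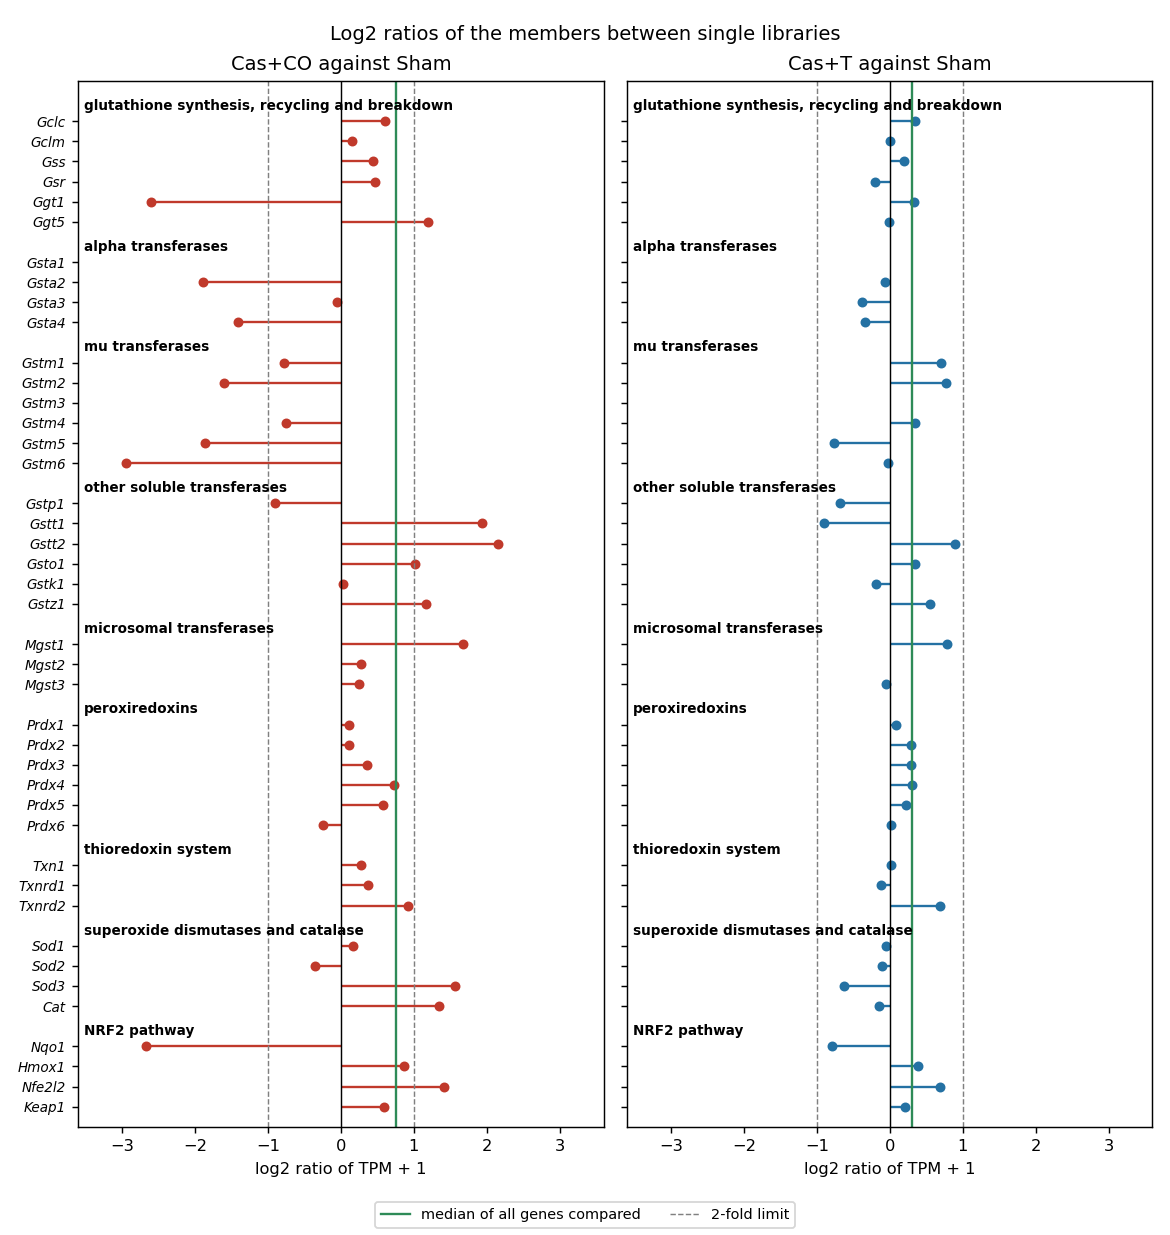
Log2 ratio of TPM + 1 for each member in Cas+CO against Sham (left) and Cas+T against Sham (right), 1 library against 1 library, with dashed lines at the 2-fold limit and a green line at the median of all genes compared (0.76 and 0.30). On the left the members run from −2.95 (Gstm6) to 2.15 (Gstt2); on the right all 39 compared members lie between the dashed lines.

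Genes that make and recycle glutathione lay within 2-fold in every comparison. Gclc, the catalytic subunit of glutamate-cysteine ligase, which carries out the rate-limiting step of glutathione synthesis, was at 23.1 (Sham), 35.5 (Cas+CO) and 29.7 TPM (Cas+T). Its modifier subunit Gclm was the most abundant gene of the group, at 192, 213 and 192 TPM. Glutathione synthetase (Gss), which completes the molecule, was at 12.6, 17.4 and 14.5 TPM, and glutathione reductase (Gsr), which regenerates it from the oxidised form, at 29.3, 40.8 and 25.4 TPM. For these 4 genes Cas+CO was the highest library, and the log2 ratios over Sham, from 0.15 to 0.60, were all below the median of all genes.

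The gamma-glutamyl transferases went opposite ways. Ggt1 (ENSMUSG00000006345; chromosome 10, 75561604 to 75586200, GRCm38), the main cell-surface enzyme that cleaves glutathione, was at 82.7 (Sham), 12.7 (Cas+CO) and 104 TPM (Cas+T). Cas+CO was thus the lowest library, 6.1-fold under Sham on the TPM + 1 scale (log2 ratio −2.61), and Cas+T stood at 126.2% of the Sham TPM. Ggt5, a relative that also acts on leukotrienes, was low throughout, at 1 (Sham), 3.59 (Cas+CO) and 0.98 TPM (Cas+T). Its log2 ratio of 1.20 for Cas+CO against Sham became 0.44 relative to the median of all genes.

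The mu transferases had the largest total of any role group in Sham and in Cas+T, but not in Cas+CO, where peroxiredoxins summed to more. The 6 genes summed to 2431 (Sham), 894.2 (Cas+CO) and 3399 TPM (Cas+T). Gstm2 (ENSMUSG00000040562) was at 1031, 340 and 1755 TPM, and Gstm1 (ENSMUSG00000058135) at 652, 379 and 1063 TPM. Both were lowest in Cas+CO and highest in Cas+T, where they stood at 170.2% and 163% of Sham. Gstm6 (ENSMUSG00000068762) had the lowest log2 ratio of all members in Cas+CO against Sham, −2.95, with 282 (Sham), 35.6 (Cas+CO) and 279 TPM (Cas+T). Gstm5 (ENSMUSG00000004032) was at 422, 115 and 247 TPM. It was lower in both castrated libraries and came to 58.6% of Sham in Cas+T. Gstm4 was at 43.2, 25.3 and 55.02 TPM. All 5 compared mu genes were thus lower in Cas+CO than in either other library. As deposited, 3 of them (Gstm2, Gstm5 and Gstm6) passed the 2-fold limit against Sham, and relative to the median all 5 did, with Gstm1 at −1.54 and Gstm4 at −1.51. All 5 were above Cas+CO in Cas+T by 2-fold or more, with log2 ratios from 1.09 (Gstm4) to 2.94 (Gstm6). The summed principal cell markers given above were also lowest in Cas+CO, while the summed epithelial markers were not. Of the 6 principal cell markers 0 were above Sham in Cas+CO, and likewise 0 in Cas+T. In Cas+T, Gstm1, Gstm2, Gstm4 and Ggt1 were above Sham, and Gstm5, Gstm6, Gsta2, Gsta4 and Nqo1 were not. The part of cell makeup in the levels of the mu genes, Ggt1, Gsta2, Gsta4 and Nqo1 was not tested.

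The share of each gene in the total of the 6 mu members, which does not depend on the library total, also differed. Gstm2 held 42.4% of the mu total for Sham, 38% for Cas+CO and 51.6% for Cas+T, and Gstm1 26.8%, 42.4% and 31.3%. Among these members Gstm1 was therefore first in Cas+CO, and Gstm2 in the other libraries. Gstm7, a mu gene that is not a member, is left out of this total. In Sham it stood above Gstm2, at 1138 against 1031 TPM. Gstm6 held 11.6%, 3.98% and 8.21%, and Gstm5 17.4%, 12.8% and 7.27%.

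**Figure D3:**
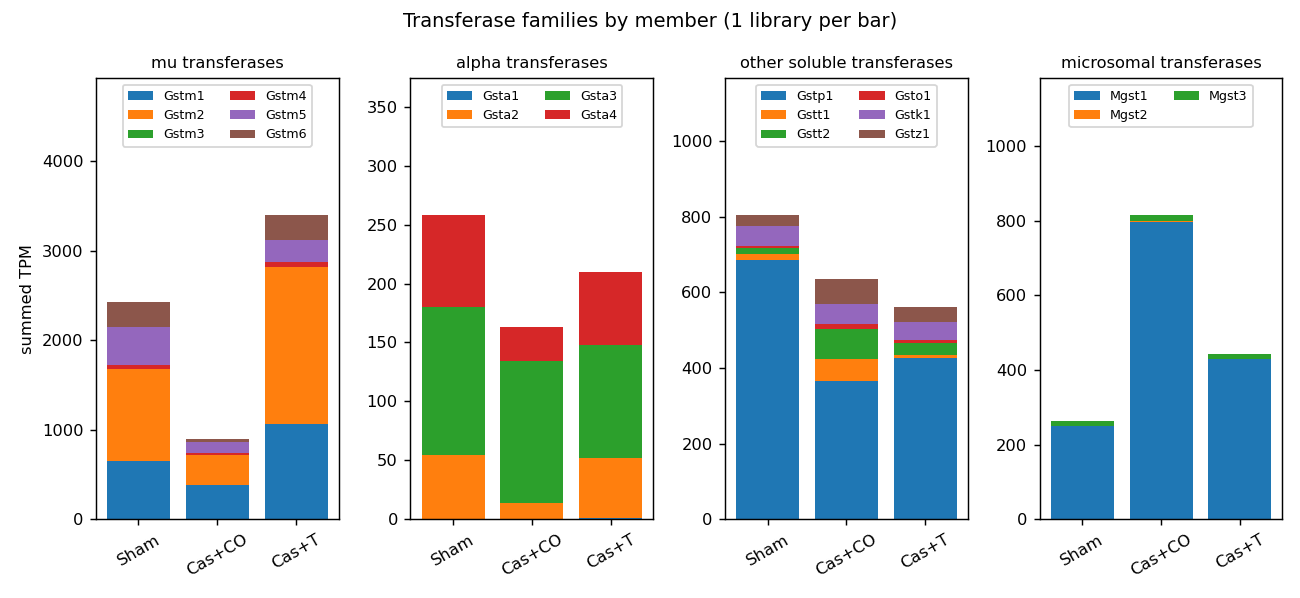
Summed TPM of 4 transferase families in the Sham, Cas+CO and Cas+T libraries, 1 library per bar and no error, with a colour for each member and a separate vertical axis for each family. The mu total is lowest in Cas+CO (894.2 TPM) and the microsomal total highest there (815.2 TPM), and the alpha bar of Cas+CO consists mostly of Gsta3.

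The mu genes form a cluster of 149 kb on mouse chromosome 3 (107895821 to 108044894, GRCm38), which also holds Gstm7. Gstm7 is not among the 42 genes, and it was taken from a list of related glutathione genes. It was at 1138 (Sham), 99.5 (Cas+CO) and 1638 TPM (Cas+T), and its log2 ratio of −3.50 for Cas+CO against Sham was lower than that of every member. Along the cluster, Gstm5 lies first and on the plus strand, and the others lie on the minus strand. In the order of the map these had log2 ratios for Cas+CO against Sham of −3.50 (Gstm7), −2.95 (Gstm6), −1.60 (Gstm2), −0.78 (Gstm1) and −0.75 (Gstm4), with Gstm3, not compared, between Gstm6 and Gstm2. The ratios thus came closer to 0 with distance from Gstm7, an order of 5 genes that was noticed after their values were seen and was not tested. For Cas+T against Sham the same 5 genes had 0.53, −0.02, 0.77, 0.70 and 0.34, which followed no such order.

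**Figure D4:**
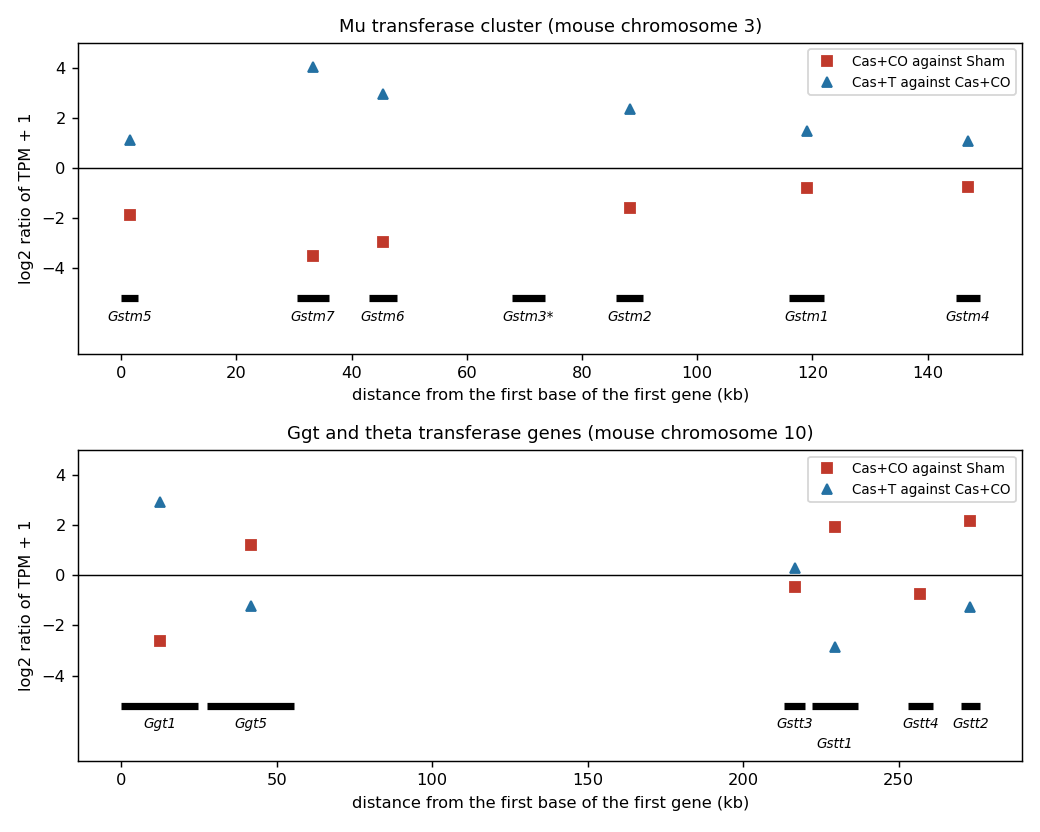
Log2 ratios of TPM + 1 for Cas+CO against Sham (squares) and Cas+T against Cas+CO (triangles) along the mu transferase cluster (top) and the Ggt and theta transferase genes (bottom), by distance in kb from the first base of the first gene; black bars are genes and * marks a gene not compared. In the cluster all squares lie below 0 and all triangles above; in the lower panel Ggt1 has a negative square (−2.61) and Ggt5, Gstt1 and Gstt2 positive ones. Cas+CO enters both ratios with opposite sign.

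How far reads could be assigned to single genes differed between families. Of the stretches of 31 bases in the annotated transcripts, 28.8% for Gstm1, 12.2% for Gstm2, 11.1% for Gstm5, 9.62% for Gstm6, 3.31% for Gstm4 and 2.62% for Gstm7 also occurred in transcripts of another gene, which for Gstm5 was the annotated transcript 4933431E20Rik. For Gstm1 the largest overlap was with the pseudogene Gstm2-ps1, listed at 4.37, 2.14 and 6.24 TPM. The shares were higher for Gsta1 (92.9%), Gsta2 (60.7%) and Gstp1 (38.5%), 26.7% for Sod2, and 0 for Ggt1, Gsta4, Mgst1, Nqo1, Cat and Nfe2l2. How the submitters divided shared reads is not given in the sources used here, so the split between Gsta1 and Gsta2, and between Gstp1 and its copies, is uncertain.

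Among the alpha transferases, which also reduce lipid peroxides, 2 of 3 compared genes were lower in Cas+CO. Gsta2 was at 53.7 (Sham), 13.7 (Cas+CO) and 50.98 TPM (Cas+T). Gsta4, which conjugates 4-hydroxynonenal, a product of lipid peroxidation, was at 77.9, 28.6 and 61.4 TPM. Both had Cas+CO as their lowest library, with log2 ratios of −1.89 and −1.41 against Sham and 1.82 and 1.07 for Cas+T against Cas+CO. Gsta3 was at 126, 120 and 96.3 TPM and lay within 2-fold in every comparison. As the other alpha genes were low in Cas+CO, its share of the alpha total was 48.8% (Sham), 74% (Cas+CO) and 46% (Cas+T). The genes for Gsta4, Gsta1 and Gsta2 lie near each other on chromosome 9, whereas Gsta3 is on chromosome 1.

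Since reads of Gsta1 and Gsta2 are hard to separate, their upstream sequences are shown as a further mark of their likeness. In the RefSeq promoter table (GRCm38.p6), the 250 bases before the starts of these 2 genes share an exact run of 29 bases, given in capitals, the longest among 561 pairs of 34 members in the table. The median longest run over these pairs was 8 bases, and among 15 pairs of mu genes the longest was 13.
Gsta1, chr9:78230527-78230603, plus strand: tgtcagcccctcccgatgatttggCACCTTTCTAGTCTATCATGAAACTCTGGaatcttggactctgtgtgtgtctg
Gsta2, chr9:78347214-78347290, minus strand: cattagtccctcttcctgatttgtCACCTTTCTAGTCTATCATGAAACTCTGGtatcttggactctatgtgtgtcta

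The other soluble transferases lay on both sides. Gstp1 (ENSMUSG00000060803), the pi-class enzyme and next to Gstm2 and Prdx1 in level in Sham, was at 686 (Sham), 367 (Cas+CO) and 428 TPM (Cas+T). Its log2 ratio for Cas+CO against Sham was −0.90, within 2-fold as deposited and −1.66 relative to the median, and Cas+T stood at 62.3% of Sham. Both castrated libraries were thus lower than Sham. The theta-class genes Gstt1 and Gstt2 went the other way: Gstt1 was at 14.3, 57.8 and 7.12 TPM and Gstt2 at 17.1, 79.3 and 32.4 TPM. They were the only members at least 2-fold higher in Cas+CO than in Sham on both scales, with log2 ratios of 1.94 and 2.15 (1.18 and 1.39 relative to the median). In Cas+T they parted, with Gstt1 at 49.8% of Sham, the lowest log2 ratio of any member in that comparison (−0.91), and Gstt2 at 189.7%, the highest (0.89).

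Gstz1, which also takes part in tyrosine breakdown, was at 28.2, 64.9 and 41.7 TPM. Gsto1, an omega-class enzyme with a cysteine in its active site, was at 5.67, 12.5 and 7.44 TPM. Both were highest in Cas+CO, at log2 ratios of 1.17 and 1.02 over Sham, but relative to the median these were 0.41 and 0.25. Gstk1, the kappa-class enzyme of mitochondria and peroxisomes, was at 52.8, 53.9 and 46.1 TPM. As deposited it differed least between Sham and Cas+CO, with a log2 ratio of 0.03, which was −0.73 relative to the median.

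Ggt1 and Ggt5 lie in the same stretch of 276 kb of chromosome 10 as the theta genes. The 2 further theta genes there, which are not members, were taken as neighbours of the same family: Gstt3 was at 83.4 (Sham), 60.3 (Cas+CO) and 73.5 TPM (Cas+T), and Gstt4 at 1, 0.18 and 0 TPM. Gstt3 lies between Ggt5 and Gstt1 and was within 2-fold in every comparison as deposited. Relative to the median it was past the limit as lower in Cas+CO against Sham, at −1.23. Neighbours in this region therefore differed in direction, whereas the compared genes of the mu cluster were all lower in Cas+CO than in Sham.

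The microsomal transferases are membrane proteins unrelated in sequence to the soluble ones. Mgst1 (ENSMUSG00000008540), which acts on lipid peroxides at the endoplasmic reticulum and mitochondria, was at 249 (Sham), 798 (Cas+CO) and 429 TPM (Cas+T). Cas+CO was highest and Cas+T, at 172% of Sham, lay between. The log2 ratio for Cas+CO against Sham was 1.67, 0.91 relative to the median and 1.40 relative to genes of similar abundance. Mgst3 was at 13.7, 16.5 and 13.1 TPM, and Mgst2 at 0.65, 1 and 0.04 TPM. Mgst1 supplied 94.6% of the microsomal total for Sham, 97.9% for Cas+CO and 97% for Cas+T.

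No peroxiredoxin was 2-fold apart in any comparison as deposited. The 6 genes summed to 1906 (Sham), 2086 (Cas+CO) and 2079 TPM (Cas+T). Prdx1, the main cytosolic enzyme, was at 858, 924 and 908 TPM. Prdx6, which uses glutathione rather than thioredoxin, was at 466, 395 and 474 TPM and was the sole peroxiredoxin lower in Cas+CO than in Sham. Its log2 ratio was −0.24, which lay just past the 2-fold limit relative to the median. Prdx5 was at 271, 402 and 315 TPM and Prdx2 at 209, 225 and 256 TPM. The mitochondrial Prdx3 was at 81.5, 105 and 99.6 TPM and Prdx4, of the endoplasmic reticulum, at 21.02, 35.6 and 26.1 TPM. Of the family total, Prdx1 held 45%, 44.3% and 43.7%. Prdx6 held 24.4%, 18.9% and 22.8%, Prdx5 14.2%, 19.3% and 15.1%, and Prdx4 1.1%, 1.71% and 1.25%. Prdx5 thus stood above Prdx6 in Cas+CO and below it in the other libraries.

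The 3 genes of the thioredoxin system also lay within 2-fold as deposited. Thioredoxin itself (Txn1) was at 77.5 (Sham), 93.8 (Cas+CO) and 78.3 TPM (Cas+T), and its cytosolic reductase Txnrd1 at 47.4, 61.7 and 43.4 TPM. The mitochondrial reductase Txnrd2 was lower in level and farther apart, at 5.47, 11.3 and 9.41 TPM, or 206% (Cas+CO) and 172% (Cas+T) of its Sham level. Its log2 ratio for Cas+CO against Sham was 0.92, and 0.16 relative to the median; with a pseudocount of 0.1 TPM it was 1.03, past the 2-fold limit.

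The abundant superoxide dismutases lay close in the 3 libraries, and Sod3 and catalase did not. Sod1, the cytosolic copper and zinc enzyme, was at 470 (Sham), 531 (Cas+CO) and 451 TPM (Cas+T), and Sod2, the mitochondrial manganese enzyme, at 37.6, 29.02 and 34.7 TPM. Both lay within 2-fold as deposited; Sod2 was −1.12 relative to the median in Cas+CO against Sham. Sod3, the secreted form bound to extracellular matrix, was at 1.48, 6.30 and 0.60 TPM. Catalase (Cat), an enzyme of peroxisomes, was at 19.9, 52.05 and 17.8 TPM. Sod3 and Cat were highest in Cas+CO, with log2 ratios of 1.56 and 1.34 over Sham that became 0.80 and 0.58 relative to the median, and both were lower in Cas+T on either scale, at −2.19 and −1.50 against Cas+CO as deposited. The summed adipocyte, fibroblast, macrophage and endothelial markers given above were highest in Cas+CO in the same way. Their part in the levels of Sod3, Cat, Ggt5, Mgst1, Gstt1, Gstt2, Nfe2l2 and Hmox1 was not tested.

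In the NRF2 pathway Nfe2l2 was called higher and Nqo1 lower in Cas+CO against Sham, and Keap1 and Hmox1 lay within 2-fold. Nfe2l2, which encodes NRF2, was at 54.7 (Sham), 147 (Cas+CO) and 88.6 TPM (Cas+T), and Keap1, its inhibitor, at 19.5, 29.8 and 22.5 TPM. Both transcripts were highest in Cas+CO. Keap1, at a log2 ratio of 0.59 over Sham, was at −0.17 relative to the median of all genes, and Nfe2l2 was higher than Sham by a log2 ratio of 1.41 (0.65 relative to the median, 1.13 relative to genes of similar abundance). The mean of Nfe2l2 over Sham and Cas+CO lay just above 100 TPM, the lower limit of its abundance class. Set against the median of the class below, 0.72, its ratio would lie within 2-fold. Nqo1 (ENSMUSG00000003849), a quinone reductase known as an NRF2 target, was at 36.5, 4.88 and 20.7 TPM. It was lowest in Cas+CO, at a log2 ratio of −2.67 against Sham, and in Cas+T stood at 56.8% of Sham. Hmox1, heme oxygenase, which breaks down heme and is also an NRF2 target, was at 6.04, 11.8 and 8.17 TPM, with a log2 ratio of 0.87 for Cas+CO against Sham, which was 0.10 relative to the median and −0.06 relative to genes of similar abundance. Transcript levels say nothing of the amount of NRF2 protein, which KEAP1 controls.

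The list of 30 other NRF2 pathway genes, partners and targets, had 6 members higher and 1 lower in Cas+CO than in Sham (3 and 3 relative to the median), with a median log2 ratio of 0.60. Over all genes 37.5% were higher and 6.49% lower (11.1% and 13.4% relative to the median), so neither count as deposited exceeded the share over all genes. Ephx1, a microsomal epoxide hydrolase, was at 40.7 (Sham), 250 (Cas+CO) and 55.3 TPM (Cas+T), and Nfe2l3, a relative of NRF2, at 22.5, 83.9 and 38.8 TPM. The lower gene was G6pdx, glucose-6-phosphate dehydrogenase, a source of NADPH, at 112, 52.1 and 110.3 TPM. In Cas+T against Cas+CO 1 gene of this list was higher, again G6pdx, and 5 were lower: Ephx1, Nfe2l3, Me1, Epha2 and Maff. In Cas+T against Sham none of 28 was higher and 1, Abcc4, was lower. Epha2, Maff and Abcc4 are named only to complete these counts. Over all genes, 6.91% were higher and 23.4% lower in the former comparison, and 5.2% and 2.76% in the latter.

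Among 37 further glutathione and thioredoxin genes, 34 were compared between Cas+CO and Sham: 8 were higher and 4 lower (4 and 11 relative to the median), with a median log2 ratio of 0.21. The shares over all genes were again 37.5% and 6.49% (11.1% and 13.4% relative to the median). Gstm7, described above, was the lowest; the other 3 lower genes were Srxn1, Slc7a11 and Ggct. Txnip, which binds and inhibits thioredoxin, was at 109 (Sham), 973 (Cas+CO) and 185 TPM (Cas+T), with a log2 ratio of 3.14, above every member. Anpep, an aminopeptidase that cleaves cysteinyl-glycine from glutathione breakdown, was at 3.12, 25.97 and 6.14 TPM, and Hpgds, the sigma-class transferase that makes prostaglandin D2, at 1.37, 12.4 and 1.68 TPM. In Cas+T against Cas+CO 5 of 33 were higher (Gstm7, Srxn1, Slc7a11, Ggct and Chac1) and 8 lower, against 6.91% and 23.4% of all genes. In Cas+T against Sham none of 34 was higher and 2, Ggt7 and Gstt4, were lower, against 5.2% and 2.76%. Srxn1, Slc7a11, Ggct, Chac1 and Ggt7 were named after their values were seen.

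Upstream sequences of the members were searched for the antioxidant response element, written TGACNNNGC and read on both strands in the 250 bases before each RefSeq start (GRCm38.p6). Of 34 members with a promoter in the table, 9 (26.5%) held a match, against 11.5% of 27025 genes; a gene with several starts counts once. A match is a description of letters, not evidence of binding. The sites below, with the match in capitals and 5′ to 3′ on the strand of the gene, belong to members that were lower (Gstm5, Ggt1), higher (Mgst1, Nfe2l2) or within 2-fold (Gclm, Prdx1, Txnrd1) in Cas+CO against Sham. A further match lies before another start of Ggt1.
Gstm5, chr3:107895788-107895844, plus strand: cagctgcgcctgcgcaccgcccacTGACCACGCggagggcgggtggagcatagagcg
Ggt1, chr10:75571453-75571509, plus strand: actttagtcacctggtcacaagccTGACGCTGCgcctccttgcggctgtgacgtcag
Mgst1, chr6:138140447-138140503, plus strand: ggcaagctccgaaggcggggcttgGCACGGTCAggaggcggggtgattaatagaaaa
Nfe2l2, chr2:75704871-75704913, minus strand: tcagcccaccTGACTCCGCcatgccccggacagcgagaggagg
Gclm, chr3:122245399-122245455, plus strand: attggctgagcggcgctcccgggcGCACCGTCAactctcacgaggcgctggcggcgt
Prdx1, chr4:116685442-116685498, plus strand: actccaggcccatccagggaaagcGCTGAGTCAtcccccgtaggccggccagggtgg
Txnrd1, chr10:82859090-82859146, plus strand: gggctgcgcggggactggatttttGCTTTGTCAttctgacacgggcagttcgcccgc
The match lies on the strand of the gene for Gstm5, Ggt1 and Nfe2l2 and on the opposite strand for the others. The remaining members with a match were Gsta3 and Sod1, both within 2-fold. Gstm7, which is not a member, also held a match. Gsta2, Gstm2, Gstm6 and Nqo1, called lower in Cas+CO against Sham, had none in this window, nor had Gstm1 and Gstm4, which lay within 2-fold as deposited. No promoter window was at hand for Ggt5, Gclc, Gsr, Gsta4, Gstt2, Prdx6, Sod3 and Hmox1. The androgen response element, by the letters G, any base, ACA, any 3 bases, TGT, any base and C, was found before 0 of the 34 members and before 0.44% of all genes.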

How the data were processed

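The deposited tables hold 1 log2 value per gene and library, with no unit named in the file headers. In each library 2 to the power of the value, minus 1, summed to 1000000 in steps of 0.01, and the lowest values depended on gene length (1st percentile in Sham 0.30 for genes with under 500 exonic bases, 0.02 for over 5000), so the deposited log2 values were read as log2(TPM + 1). The aligner, counting tool, genome build and strand setting behind the authors' deposited values were not given in the sources used here. TPM keeps no depth. Of 23538 rows, 23518 identifiers matched GENCODE M21 (GRCm38), from which all coordinates come; 937 rows without a symbol were named from it unless that name was already taken, and rows sharing a symbol were summed. The members, lists and limits were chosen with earlier results of these data known. All members found in the files are named; from each of the 2 further lists come the genes with the largest ratios that reached 10 TPM (up to 4 per comparison), and neighbours of the same transferase family were added. Ratios used a pseudocount of 1 TPM and a minimum of 1 TPM. Abundance classes were mean TPM of 1 to 10, 10 to 100, and 100 or more. Stretches of 31 bases were counted in GENCODE M21 transcripts, promoters come from RefSeq (GRCm38.p6). No protein sequences were compared. The code was tested on simulated data. Python 3.11.15, NumPy 2.4.6, pandas 2.3.3 and matplotlib 3.10.9 were used.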

Additional observations from a re-analysis of the deposited data

How the results depend on the processing

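With 1 library per group no replicate could be left out, and depth is unknown. No paired analysis was possible because each group has 1 library. No called ratio of a member changed sign under any alternative run. For Cas+CO against Sham, 9 members were higher and 7 lower as deposited. Relative to the median the counts were 2 and 12 (11.1% and 13.4% of all genes), and with a 4-fold limit 1 and 3 (7.59% and 2.55% of all genes). With the 50 most abundant genes of any library left out of the total, 6 of 39 were higher and 10 lower (25.4% and 8.03% of all genes). For Cas+T against Cas+CO, 9 were higher and 5 lower; with a 4-fold limit 3 and 2 (2.5% and 5.31%), and with a minimum of 10 TPM, or relative to the median, 3 were lower (18.1% and 11.8%). For Cas+T against Sham, 0 were lower; relative to the median 3 were (4.41%), and with a pseudocount of 0.1 TPM (Sod3; 4.32%) or a total that leaves out each library's top 50 genes (Gstt1; 3.34%) 1 was. That pseudocount also put Txnrd2 past the limit as higher in Cas+CO against Sham (0.92 to 1.03) and Mgst2 as lower in Cas+T against Cas+CO (−0.94 to −2.97), for counts of 10 and 6 (44.7% and 29.6%). Fewer genes enter under the minimum of 10 TPM, and a 4-fold limit calls fewer by construction; for the other settings the cause was not tested. Leaving mitochondrial, ribosomal, red blood cell and sperm genes out of the total, no minimum, or the highest row per symbol moved no member across the limit. The following 2 scalings were chosen after seeing the data. Relative to genes of the same abundance class, 4 were higher and 11 lower in Cas+CO against Sham (10.2% and 13.6% of all genes), 3 were lower in Cas+T against Cas+CO (10.3%) and 2 were lower in Cas+T against Sham (4.31%). The 4 include Nfe2l2, whose mean lay just above the lower limit of its class. Scaled to 6 epithelial markers, 6 were higher and 10 lower in Cas+CO against Sham (25% and 8.06% of all genes). On that scale 4 were lower in Cas+T against Sham (Gstm5, Gstp1, Gstt1 and Nqo1, against 4.18% of all genes). Gstm1, Gstm4 and Gstp1 were past the limit as lower in Cas+CO than Sham relative to the median, without the top 50 genes, relative to abundance class and scaled to epithelial markers, and under these 4 scalings Ggt5, Gsto1 and Gstz1 were not past it as higher.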
